A study of Mus musculus with 16 samples.

Results

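Fkbp5, Tsc22d3, Zbtb16, Klf9, Sgk1, Cebpd, Ddit4, Mt1 and Mt2 are genes that glucocorticoids are known to induce in many tissues. They were chosen by name as targets of the glucocorticoid receptor. All 9 were found by Ensembl ID among the 17370 genes of the deposited table of mouse quadriceps, and all 9 passed the filter on low counts and were among the 15411 genes tested. The question put to them was whether their levels moved together in both limbs of an animal, as a hormone carried in the blood would reach both, or in 1 limb alone. No level of the hormone itself was analysed here.

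Glucocorticoids are adrenal steroid hormones that follow the daily rhythm and are released in stress. The hormone binds the glucocorticoid receptor, encoded by Nr3c1, which leaves its chaperones in the cytoplasm, enters the nucleus and binds paired half-sites in DNA near its target genes. In skeletal muscle the hormone is known for shifting fuel use away from glucose and, in excess, for loss of muscle protein. Several of the targets also answer to other signals: metallothioneins to metals and cytokines, Cebpd to cytokines and Ddit4 to energy and oxygen stress.

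RNA was sequenced from the quadriceps, which lies on the front of the thigh and straightens the knee, in 16 libraries of 4 groups with 4 libraries each. The groups were healthy quadriceps with placebo, quadriceps after transection of the anterior cruciate ligament of the knee (called injured here) with placebo, healthy quadriceps with the inhibitor, and injured quadriceps with the inhibitor. For 7 days after transection the mice drank either an inhibitor of CSF1-R at 40 mg/kg or 0.5% sucrose as placebo; CSF1-R is the receptor on which most macrophages depend for survival, and a drug in the drinking water reaches the whole animal. Strain, sex, age and the name of the inhibitor are not given in the labels, and no group was treated with a glucocorticoid. In the column names each healthy sample shares a stem with an injured sample, which was read here as marking the limbs of 1 animal, which gives 4 placebo and 4 inhibitor animals; the series' design text speaks instead of samples before and after transection. Healthy limbs on that reading belong to operated animals, so no library comes from an animal without surgery. Every healthy column ends in L and every injured column in R. If these letters mark the side of the body, injury and side cannot be told apart. Nothing in the labels gives the hour of tissue collection.

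The libraries held 20.12 to 27.13 M counts (M, mega), and levels are given as CPM, counts scaled to equal library totals after correction for library composition, with 3 counts equal to 0.111 to 0.149 CPM. The summed level of 8 myofibre markers, 83800 to 159000 CPM, showed muscle fibre RNA in every library. Prg4, the lubricin gene of joint surfaces, was at 169 to 286 CPM in 4 libraries (healthy inhibitor 1, healthy placebo 4, injured placebo 2 and injured placebo 3) and no higher than 19.5 CPM in any of the other 12. The summed level of 10 macrophage markers was 123 to 744 CPM in those 4 libraries and 24.2 to 122 CPM in the others. No animal had both limbs among these 4 libraries. In whole tissue, fewer cells of a type and less RNA per cell cannot be told apart. The labels call the samples biological replicates.

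The genes lie on 7 chromosomes of GRCm38. Fkbp5 (ENSMUSG00000024222) spans bases 28399094 to 28517527 of chromosome 17, Zbtb16 (ENSMUSG00000066687) bases 48654297 to 48836222 of chromosome 9, and Tsc22d3 (ENSMUSG00000031431) bases 140539528 to 140600659 of chromosome X, all on the minus strand. Klf9 (ENSMUSG00000033863) spans bases 23141226 to 23168134 of chromosome 19, Sgk1 (ENSMUSG00000019970) bases 21882184 to 21999903 of chromosome 10, and Cebpd (ENSMUSG00000071637) bases 15887286 to 15891031 of chromosome 16, all on the plus strand. Ddit4 (ENSMUSG00000020108) lies on the minus strand of chromosome 10 from base 59949669 to 59951834. Mt2 (ENSMUSG00000031762), at bases 94172664 to 94173568, and Mt1 (ENSMUSG00000031765), at bases 94179082 to 94180327, are neighbours on the plus strand of chromosome 8. Mt2 overlaps the antisense gene Gm45774, Cebpd overlaps Spidr on the other strand, and Fkbp5 overlaps 4 annotated loci; whether counting used strand is not given in the sources used here, so reads could have been shared. Mt1 and Mt2 encode related proteins, and how any shared reads were split between them is uncertain.

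Per kilobase of merged exon, Klf9 had the highest mean level over the 16 libraries, 43.8 CPM per kb, and Tsc22d3 followed at 24.1 CPM per kb. Sgk1 was at 15.2 and Zbtb16 at 13.5 CPM per kb. Mt1 and Mt2 were close together, at 7.49 and 7.22 CPM per kb. Fkbp5, Cebpd and Ddit4 were lowest, at 4.04, 3.82 and 3.40 CPM per kb. The spread over libraries went in another order: the highest library was 16.6-fold above the lowest for Mt2, 4.26-fold for Zbtb16, 3.73-fold for Fkbp5 and only 1.68-fold for Klf9.

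**Figure D1:**
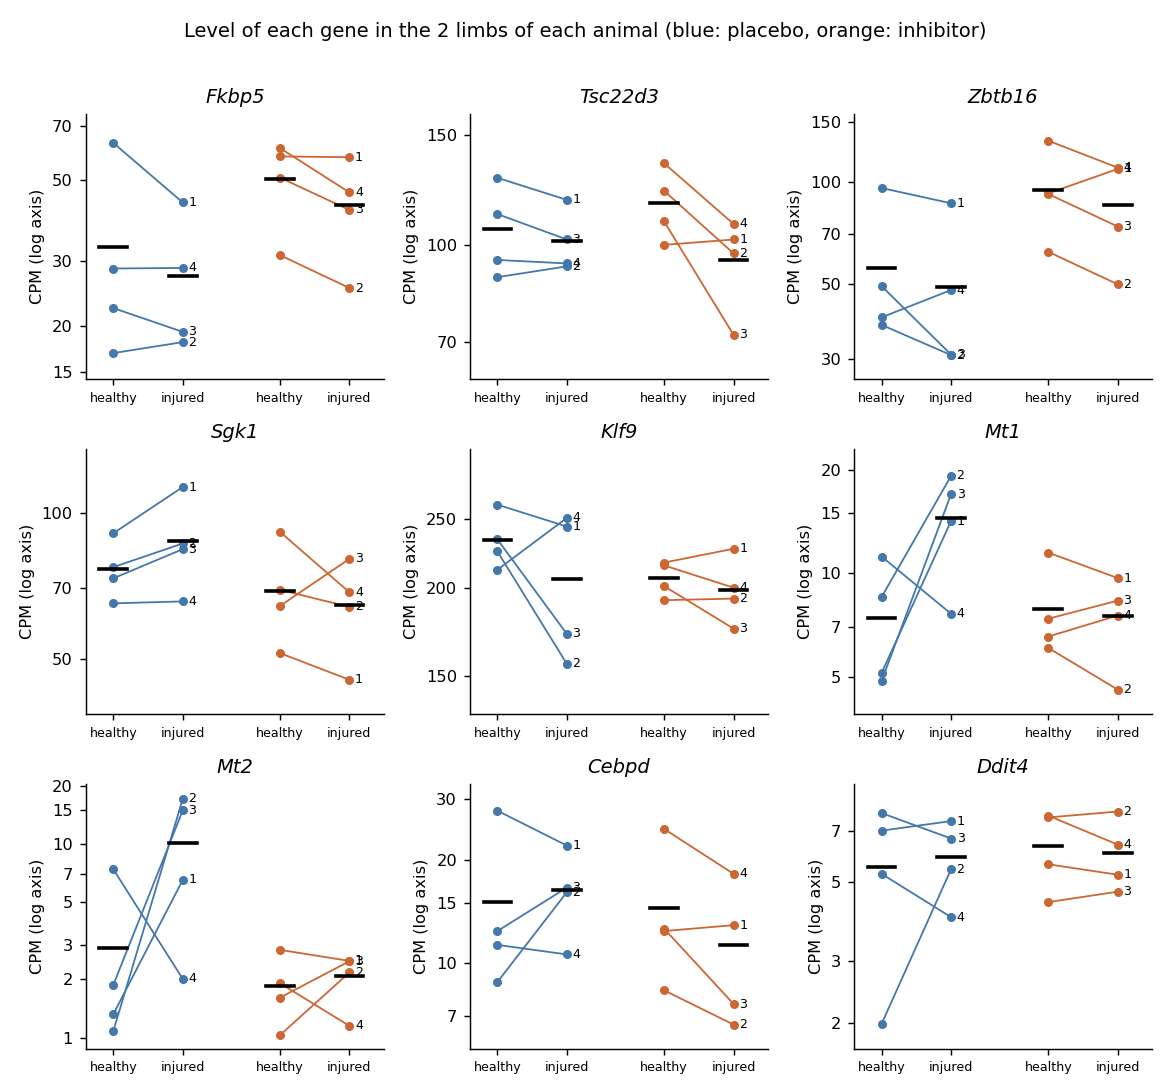
Level of each of the 9 genes in CPM (log axis) in healthy and injured quadriceps; each line joins both limbs of an animal numbered 1 to 4, blue for placebo and orange for inhibitor, and black bars are group means. For Fkbp5 and Zbtb16 the line of placebo animal 1 lies among those of the inhibitor animals, while for Mt2 the lines of 3 placebo animals climb from 1.08 to 1.87 CPM in the healthy limb to 6.52 to 17.1 CPM in the injured limb.

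None of the 9 genes passed the adjusted threshold of 0.05 in any of the 7 comparisons with edgeR, and neither did any other gene, so 0% of genes were called in each. At an unadjusted p under 0.05, injury with placebo took in 2 of the 9 genes (Mt1 and Mt2) beside 7.24% of all genes tested. Injury with the inhibitor took in 0 of 9 beside 1.31%. The inhibitor in injured limbs took in 3 of 9 (Mt2, Mt1 and Sgk1) beside 14.9%, and in healthy limbs 0 of 9 beside 3.34%. The difference of the injury effects between inhibitor and placebo took in 1 of 9 (Mt1) beside 2.74%, and injury over both treatments 0 of 9 beside 4.91%. With the limbs of each animal summed, so that the animal is the unit, the inhibitor took in 2 of 9 (Mt2 and Mt1) beside 14.6%. With 9 genes no test sets these counts apart from the background, and all the genes counted but Sgk1 were the neighbouring pair Mt1 and Mt2. DESeq2 called Mt2 for the inhibitor in injured limbs and with the limbs summed, and none of the other 8 genes in any of the 7 comparisons.

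In direction, too, the 9 genes were divided. Their median log2 difference was 0.09 for injury with placebo, -0.10 for injury with the inhibitor, 0.09 for the inhibitor in healthy limbs and -0.10 in injured limbs, beside medians over all genes of 0.01, 0.00, -0.02 and -0.02. For injury with placebo 5 of the 9 were higher, and with the inhibitor 1 of the 9. For the inhibitor 5 were higher in healthy limbs and 3 in injured limbs. In none of these 4 comparisons did the 4 libraries of a group lie wholly apart from the 4 of the other for any of the 9 genes. The share of all genes with groups wholly apart was not counted, so this describes the 9 genes alone.

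**Figure D2:**
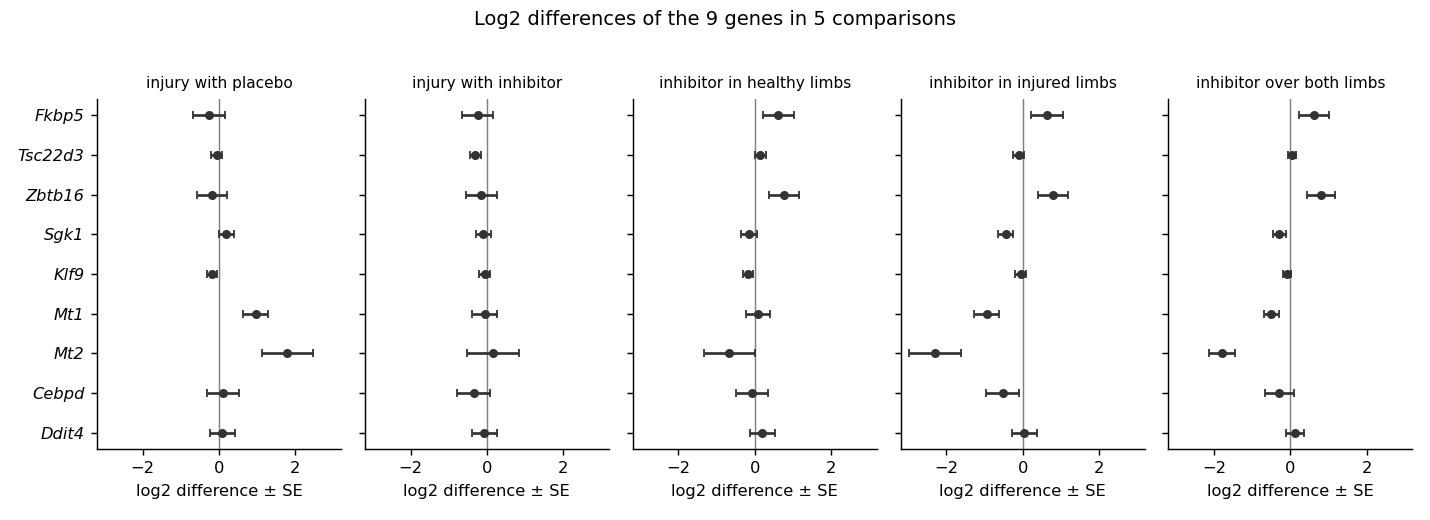
Log2 difference (x axis, with standard error bars) of each gene in 5 comparisons, from edgeR. Fkbp5 and Zbtb16 lie to the right of 0 under the inhibitor in both limbs, from 0.61 to 0.80, and Mt2 lies at 1.80 for injury with placebo and at -2.29 for the inhibitor in injured limbs; no value passed the adjusted threshold.

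Fkbp5 encodes a co-chaperone that holds the glucocorticoid receptor in a state of low hormone affinity, and its induction by the receptor closes a feedback loop. In placebo animals 1 to 4 it was at 63.0, 16.9, 22.4 and 28.7 CPM in the healthy limb and at 43.4, 18.1, 19.3 and 28.8 CPM in the injured limb. In inhibitor animals 1 to 4 it was at 57.9, 31.2, 50.7 and 61.0 CPM in the healthy limb and at 57.6, 25.4, 41.4 and 46.2 CPM in the injured limb. Both limbs of placebo animal 1 stood at the level of the inhibitor animals. The healthy limbs of the other 3 placebo animals lay below all 4 healthy limbs with the inhibitor, and among injured limbs only inhibitor animal 2 lay within their range. With placebo animal 1 the groups overlapped in both limbs. The inhibitor difference was 0.61 ± 0.41 (log2 ± SE, adjusted p = 1) in healthy limbs, 0.64 ± 0.41 (adjusted p = 0.482) in injured limbs and 0.63 ± 0.39 (adjusted p = 0.526) with the limbs summed. Injury differed from the healthy side by -0.26 ± 0.41 with placebo and -0.23 ± 0.41 with the inhibitor, both smaller than their errors. That fit did not pair the limbs, so its errors include the spread between animals. The injured limb was the higher one in 2 of 4 placebo animals and 0 of 4 inhibitor animals. Within inhibitor animals the log2 difference was -0.40 to -0.01. An unadjusted p under 0.05 came in 1 of 15 alternatives for injury with the inhibitor, and no adjusted p was below 0.999. For injury over both treatments, at -0.25 in the main fit, it came in 1 of 23, and no adjusted p was below 0.683.

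Zbtb16 encodes PLZF, a zinc finger repressor of transcription that is a sensitive receptor target in many tissues. With placebo it was, from animal 1 to animal 4, at 95.8, 37.9, 49.3 and 39.9 CPM in the healthy limb and at 86.4, 30.9, 31.0 and 48.0 CPM in the injured limb. With the inhibitor it was, from animal 1 to animal 4, at 92.4, 62.2, 92.0 and 132 CPM in the healthy limb and at 109, 49.9, 73.8 and 110 CPM in the injured limb. As with Fkbp5, placebo animal 1 was high in both limbs, and inhibitor animal 2 was the lowest of its group in both. The lowest inhibitor library lay below placebo animal 1, so the groups overlapped. The inhibitor difference was 0.76 ± 0.40 in healthy limbs, 0.80 ± 0.40 in injured limbs and 0.79 ± 0.37 with the limbs summed (adjusted p = 0.382). The injury difference was -0.18 ± 0.40 with placebo and -0.14 ± 0.40 with the inhibitor, again in the fit that did not pair the limbs.

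The size of both differences depended on which libraries entered the fit. Each animal was left out in turn, and without placebo animal 1 edgeR called 1689 of 16278 genes (10.4%), 423 higher and 1266 lower, and 2 of the 9 genes. Zbtb16 was then at 1.22 ± 0.26 (adjusted p = 0.0324) and Mt2 at -1.97 ± 0.29 (adjusted p = 0.00328), while Fkbp5 stood at 1.08 ± 0.29 (adjusted p = 0.0696). Tsc22d3 was at 0.15 ± 0.10, Klf9 at -0.01 ± 0.09 and Sgk1 at -0.15 ± 0.15 in the same fit. When any other single animal was left out, 0 genes were called. Without the 4 libraries high in Prg4, chosen after seeing the data, the inhibitor difference in injured limbs was 0.25 ± 0.55 for Fkbp5 and 0.35 ± 0.49 for Zbtb16, in a fit where injured placebo 1 and 4 alone stood for their group. With the limbs summed it was then 0.59 ± 0.39 and 0.69 ± 0.33.

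Genes of the circadian clock placed the same animal in different ways. Its mean over both limbs lay within the range of the inhibitor animals alone for 7 of the 14 genes of the clock list, within that of the other placebo animals alone for 3 (Cry2, Nr1d2 and Tef) and in neither range for 4 (Per2, Per3, Cry1 and Ciart). Nfil3, a clock-controlled repressor, had a mean over both limbs of 55.2 CPM in placebo animal 1, of 11.7 to 18.4 CPM in placebo animals 2 to 4 and of 35.6 to 61.3 CPM in inhibitor animals. Arntl, the activator BMAL1 of the clock, was at 35.6 CPM in placebo animal 1, at 13.9 to 17.3 CPM in the other placebo animals and at 27.9 to 41.7 CPM in inhibitor animals. Dbp, a clock output gene, was at 14.7 CPM in placebo animal 1, at 64.3 to 119 CPM in the others and at 7.37 to 16.9 CPM in inhibitor animals. Those 3 genes were picked after their values were seen. Nr1d2, a clock repressor, was at 117 CPM in placebo animal 1, at 113 to 134 CPM in the other placebo animals and at 84.0 to 102 CPM in inhibitor animals, and Per2 was at 4.40 CPM, between the 5.44 to 11.2 CPM and the 1.88 to 3.51 CPM of these groups. Fkbp5 was at 53.2 CPM in placebo animal 1 against 17.5 to 28.7 CPM in the other placebo animals, and Zbtb16 at 91.1 CPM against 34.4 to 43.9 CPM. Of the list of 14 clock genes, 13 had an unadjusted p under 0.05 for the inhibitor with the limbs summed and 11 passed the adjusted threshold without placebo animal 1. The part of clock phase or collection hour in the levels of Fkbp5 and Zbtb16 was not tested. Per1, which answers both to the clock and to the receptor, lay within the range of the other placebo animals: it was at 35.8 CPM in placebo animal 1, at 31.5 to 46.0 CPM in the other placebo animals and at 9.88 to 21.2 CPM in inhibitor animals.

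Tsc22d3 encodes GILZ, a leucine zipper protein through which glucocorticoids dampen inflammation. Animals 1 to 4 on placebo had it at 128, 88.8, 112 and 94.6 CPM in the healthy limb and at 118, 92.4, 102 and 93.4 CPM in the injured limb. Animals 1 to 4 on the inhibitor had it at 100, 122, 109 and 135 CPM in the healthy limb and at 102, 96.9, 71.8 and 108 CPM in the injured limb. The placebo limbs of each animal were nearly alike, while 3 of the 4 inhibitor animals were lower in the injured limb. The injury difference with the inhibitor was -0.30 ± 0.14 (unadjusted p = 0.0506, adjusted p = 1 with edgeR) and with placebo -0.06 ± 0.14. With the inhibitor, 9 of 15 alternatives gave an unadjusted p under 0.05, and none gave an adjusted p below 0.999. The difference between these injury effects was -0.24 ± 0.20 (adjusted p = 0.998). The inhibitor difference with the limbs summed was 0.04 ± 0.12, against 0.63 and 0.79 for Fkbp5 and Zbtb16.

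Klf9 encodes a Krüppel-like transcription factor that is induced by glucocorticoid and thyroid hormone. Under placebo, animals 1 to 4 had it at 262, 225, 234 and 212 CPM in the healthy limb and at 244, 156, 172 and 251 CPM in the injured limb. Under the inhibitor, animals 1 to 4 had it at 217, 192, 201 and 215 CPM in the healthy limb and at 227, 193, 175 and 200 CPM in the injured limb. Its steadiest group was the healthy inhibitor limbs, 206 ± 12.0 CPM (SD, n = 4), and its most uneven the injured placebo limbs, 206 ± 48.5 CPM, where the low pair was placebo animals 2 and 3. Those are 2 of the 4 libraries high in Prg4. The inhibitor difference in injured limbs was -0.05 ± 0.14 over all libraries and -0.31 without the 4 libraries high in Prg4 (adjusted p = 0.733 with edgeR). In healthy limbs these values were -0.18 ± 0.14 and -0.25, and with the limbs summed -0.10 ± 0.10 and -0.25. Without placebo animal 1 the sums gave -0.01 ± 0.09. An unadjusted p under 0.05 came in 1 of 16 alternatives for each limb and in 2 of 14 for the sums. No adjusted p of these was below 0.639.

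Sgk1 encodes a kinase that regulates ion channels and transporters and is induced by glucocorticoids and mineralocorticoids. Placebo animals 1 to 4 had it at 90.7, 77.2, 73.2 and 65.0 CPM in the healthy limb and at 113, 86.4, 84.1 and 65.6 CPM in the injured limb. Inhibitor animals 1 to 4 had it at 51.3, 69.3, 64.2 and 91.3 CPM in the healthy limb and at 45.2, 63.9, 80.3 and 68.5 CPM in the injured limb. The injured limb was the higher one in 4 of 4 placebo animals, by 0.01 to 0.32 on the log2 scale, and in 1 of 4 inhibitor animals. Placebo animal 1 was the highest and inhibitor animal 1 the lowest of their groups in both limbs, and the groups overlapped. The inhibitor difference in injured limbs was -0.44 ± 0.20 (unadjusted p = 0.0427, adjusted p = 0.32 with edgeR), and it was -0.27 without injured placebo 1. In healthy limbs it was -0.15 ± 0.20.

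A full palindromic receptor motif stands near a start site of Sgk1. In RefSeq promoters (250 bases before to 50 after a start, GRCm38.p6), 7 of the 9 genes had 14 promoters, of which Sgk1 had 6. The full motif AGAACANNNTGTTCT, which reads the same on both strands, occurred in 3 of 32851 promoters (0.00913%). Among them was the Sgk1 promoter at chr10:21993640-21993939 on the plus strand, where it began 189 bases before the start. It is shown because it carries this motif, in capitals.
Sgk1: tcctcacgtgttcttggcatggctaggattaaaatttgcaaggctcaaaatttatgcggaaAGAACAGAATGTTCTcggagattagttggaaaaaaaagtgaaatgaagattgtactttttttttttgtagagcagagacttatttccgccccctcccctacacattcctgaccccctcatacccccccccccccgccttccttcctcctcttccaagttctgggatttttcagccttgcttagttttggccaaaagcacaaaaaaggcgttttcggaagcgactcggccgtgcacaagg
A looser form, GNACANNNTGTNC, which also matches within each full motif, occurred in 156 promoters (0.475%), among them this Sgk1 promoter and that of Mt1, 94 bases before its start. Neither form was found in these windows of the promoters of Fkbp5, Tsc22d3, Klf9, Ddit4 or Mt2. A match describes letters and does not show that the receptor binds there.

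Cebpd encodes a transcription factor of the acute phase response that both glucocorticoids and cytokines induce. Among placebo animals, numbers 1 to 4 had it at 27.8, 8.81, 12.4 and 11.3 CPM in the healthy limb and at 22.0, 16.1, 16.6 and 10.6 CPM in the injured limb. Among inhibitor animals, numbers 1 to 4 had it at 12.4, 8.33, 12.6 and 24.6 CPM in the healthy limb and at 12.9, 6.62, 7.60 and 18.2 CPM in the injured limb. Placebo animal 1 and inhibitor animal 4 were high in both limbs, 1 in each treatment, and the groups overlapped. The inhibitor difference with the limbs summed was -0.29 ± 0.37 (adjusted p = 0.784), and 0.04 ± 0.34 without placebo animal 1.

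Ddit4 encodes REDD1, an inhibitor of the growth kinase complex mTORC1 that is known to rise in muscle under glucocorticoids. Without the inhibitor, animals 1 to 4 had it at 7.01, 1.99, 7.86 and 5.29 CPM in the healthy limb and at 7.46, 5.45, 6.66 and 3.99 CPM in the injured limb. Given the inhibitor, animals 1 to 4 had it at 5.63, 7.64, 4.40 and 7.73 CPM in the healthy limb and at 5.26, 7.94, 4.71 and 6.40 CPM in the injured limb. Only the healthy limb of placebo animal 2 lay apart, on the low side. The limbs of the inhibitor animals differed by at most 0.27 on the log2 scale. No difference in any of the 7 comparisons was larger than 0.19 (inhibitor in healthy limbs, ± 0.33).

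Mt1 and Mt2 encode metallothioneins, small cysteine-rich proteins that bind zinc and copper and are induced by metals, glucocorticoids and inflammatory cytokines. Their promoters are shown because the levels of both genes ran together over the libraries. For each gene the injured limb was the higher one in 3 placebo and 2 inhibitor animals of the 8. No injury difference of either gene passed the adjusted threshold. Capitals mark each match to TGCNCNC on either strand (GNGNGCA on the other). These letters are a loose form of the core of the metal response element, so not every match need fit the core. Mt2 is at chr8:94172368-94172667 and Mt1 at chr8:94178839-94179138, both on the plus strand.
Mt2: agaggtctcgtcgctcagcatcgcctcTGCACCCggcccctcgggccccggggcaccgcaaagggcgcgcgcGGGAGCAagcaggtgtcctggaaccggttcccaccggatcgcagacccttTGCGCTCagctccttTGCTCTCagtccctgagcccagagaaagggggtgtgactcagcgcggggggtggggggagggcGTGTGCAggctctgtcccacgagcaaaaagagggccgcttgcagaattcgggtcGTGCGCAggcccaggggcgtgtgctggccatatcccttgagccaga
Mt1: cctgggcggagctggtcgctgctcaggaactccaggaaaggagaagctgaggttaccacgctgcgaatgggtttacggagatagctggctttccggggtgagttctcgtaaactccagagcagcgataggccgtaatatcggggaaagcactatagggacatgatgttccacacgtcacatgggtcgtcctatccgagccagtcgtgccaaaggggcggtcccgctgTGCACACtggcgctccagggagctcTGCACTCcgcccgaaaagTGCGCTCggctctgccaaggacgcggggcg
The motif is common, since 51.0% of the 32851 promoters held at least 1 match. Mt2 held 6 and Mt1 held 3, and 0.225% of promoters held 6 or more. In Mt1 the looser receptor motif lies upstream of all 3 of these matches.

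Mt1 was at 5.14, 8.54, 4.87 and 11.2 CPM in the healthy limbs of placebo animals 1 to 4 and at 14.2, 19.2, 17.0 and 7.64 CPM in their injured limbs. In inhibitor animals 1 to 4 it was at 11.5, 6.08, 7.39 and 6.56 CPM in the healthy limb and at 9.70, 4.60, 8.34 and 7.55 CPM in the injured limb. In 3 of the 4 placebo animals the injured limb was the higher by 1.17 to 1.80 on the log2 scale, and in placebo animal 4 the healthy limb was. Injury with placebo gave 0.97 ± 0.33 (unadjusted p = 0.0093, adjusted p = 0.641 with edgeR). The inhibitor in injured limbs gave -0.94 ± 0.33 (unadjusted p = 0.0111, adjusted p = 0.235). The injury effect with the inhibitor was lower than with placebo by -1.03 ± 0.46 (unadjusted p = 0.0412, adjusted p = 0.998).

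Mt2 showed the same order of limbs as Mt1 in all 4 placebo animals, with larger steps. It was at 1.32, 1.08, 1.87 and 7.41 CPM in the healthy limbs of placebo animals 1 to 4 and at 6.52, 17.1, 14.9 and 2.01 CPM in their injured limbs. With the inhibitor it was, from animal 1 to animal 4, at 2.84, 1.03, 1.61 and 1.91 CPM in the healthy limb and at 2.49, 2.17, 2.48 and 1.15 CPM in the injured limb. No inhibitor library exceeded 2.84 CPM, while 4 placebo libraries lay between 6.52 and 17.1 CPM. Injury with placebo gave 1.80 ± 0.66 (unadjusted p = 0.0161, adjusted p = 0.641 with edgeR) and injury with the inhibitor 0.17 ± 0.68, and the difference between them was -1.63 ± 0.94 (adjusted p = 0.998). Without healthy placebo 4 that difference was -2.64 ± 0.78 (unadjusted p = 0.00437, adjusted p = 0.591 with edgeR). The inhibitor gave -2.29 ± 0.68 in injured limbs (unadjusted p = 0.00426, adjusted p = 0.224) and -0.66 ± 0.67 in healthy limbs.

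As a mean over both limbs, Mt2 was at 3.92, 9.09, 8.39 and 4.71 CPM in placebo animals 1 to 4 and at 2.66, 1.60, 2.04 and 1.53 CPM in inhibitor animals 1 to 4. Here the animals of both treatments did not overlap, since each placebo animal had 1 limb at 6.52 CPM or above, the injured limb in animals 1 to 3 and the healthy limb in animal 4. The share of all genes with animals wholly apart was not counted, and the animal means of Per1 and Per2 did not overlap either. With the limbs summed the inhibitor difference was -1.79 ± 0.34 (unadjusted p = 0.000402, adjusted p = 0.142 with edgeR). DESeq2 called Mt2 in this comparison (adjusted p = 5.17e-05, among 3.7% of genes called) and for the inhibitor in injured limbs (adjusted p = 0.0229, among 1.63%), and none of the other 8 genes in either. For Mt1 the summed difference was -0.50 ± 0.21 (adjusted p = 0.315).

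The metallothionein levels followed the libraries high in Prg4 and macrophage markers. Mt2 was at 2.84 to 17.1 CPM in the 4 libraries high in Prg4 and at 1.03 to 6.52 CPM in the other 12, and Mt1 at 11.2 to 19.2 CPM against 4.60 to 14.2 CPM. The top 3 libraries by Mt2, injured placebo 2, injured placebo 3 and healthy placebo 4, were also the top 3 by summed macrophage markers, at 744, 695 and 408 CPM. The library next in Mt2, injured placebo 1, was at 12.8 CPM of Prg4 and at 122 CPM of macrophage markers, close below the 123 CPM of healthy inhibitor 1. All 10 macrophage markers were lower with the inhibitor in injured limbs, all 10 at an unadjusted p under 0.05 and 0 past the adjusted threshold in edgeR. In fits without the 4 libraries, chosen after seeing the data, the inhibitor difference in injured limbs became -1.04 for Mt2 and -0.52 for Mt1. With the limbs summed it became -0.27 ± 0.34 for Mt2 and -0.03 for Mt1, and 0.16 ± 0.31 for Mt2 when placebo animal 1 was left out as well. In those sums placebo animals 2 and 3 have a healthy limb alone, and placebo animal 4 and inhibitor animal 1 an injured limb alone. The libraries left out include the 3 with the highest Mt2, so a smaller difference follows in part from the choice itself. The injury difference with placebo was 1.57 for Mt2 and 0.81 for Mt1 without the 4 libraries, in which fit injured placebo 1 and 4 alone stood for their group. The part of the cells behind these markers in the metallothionein levels was not tested further.

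**Figure D3:**
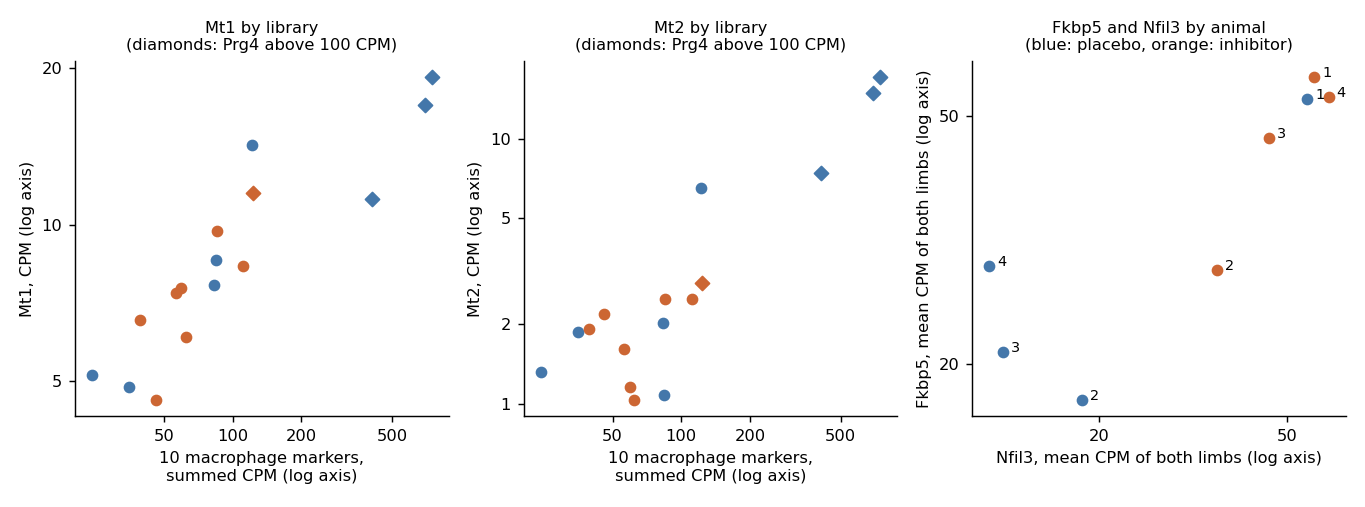
Left and middle, Mt1 and Mt2 in CPM against the summed CPM of 10 macrophage markers in each of the 16 libraries (log axes; blue placebo, orange inhibitor; diamonds, Prg4 above 100 CPM); right, mean CPM over both limbs of Fkbp5 against Nfil3 in each of the 8 animals. The libraries with the highest Mt2, 7.41 to 17.1 CPM, lie at 408 CPM of macrophage markers or above, and placebo animal 1 lies beside inhibitor animals 1 and 4.

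Whether the limbs of an animal agree was measured as the correlation, over the 8 animals, of the deviations of the healthy and of the injured limb from their own group means of log2 CPM. Animals were exchanged within each treatment in every possible arrangement for an exact two-sided permutation test, whose smallest possible p was 0.00174. For Fkbp5 the Pearson r was 0.94 (exact permutation p = 0.00347) and the Spearman rho 0.93, higher than the r of 99.8% of the genes tested. For Zbtb16 r was 0.85 (exact permutation p = 0.0156) with rho 0.93, and for Cebpd 0.76 (exact permutation p = 0.0451) with rho 0.79. Sgk1 had r 0.72 (exact permutation p = 0.0799) and rho 0.71, Tsc22d3 r 0.61 and rho 0.64, Ddit4 r 0.48 and rho 0.62, and Klf9 r 0.26 and rho 0.17. The metallothioneins had the lowest values of the 9, with r -0.11 and rho 0.05 for Mt1 and r -0.74 and rho -0.52 for Mt2 (exact permutation p = 0.847 and 0.128). Of the 9 genes 3 had a permutation p under 0.05, beside 4.54% of all genes, and no gene of the 15411 passed after adjustment (0%), the smallest adjusted p being 0.939. Because p could not fall below 0.00174, a gene could pass only if very many others shared that smallest p. The adjusted values therefore cannot decide whether the limbs of a single gene agree.

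The median r of the 9 genes was 0.61, and that of all genes tested 0.01. Without the 2 animals farthest from the median of the healthy limb, r was 0.94 for Fkbp5, 0.55 for Zbtb16, 0.32 for Cebpd, 0.74 for Sgk1 and 0.44 for Tsc22d3. It was 0.67 for Ddit4, 0.54 for Klf9, -0.45 for Mt2 and 0.42 for Mt1, whose sign turned without placebo animal 4 and inhibitor animal 1. So the agreement of Cebpd rested largely on placebo animal 1 and inhibitor animal 4. The absolute log2 difference between the limbs of an animal averaged 0.23 for Fkbp5, against 0.73 between a healthy and an injured limb of different animals with the same treatment. The same pair of values was 0.31 and 0.69 for Zbtb16 and 0.41 and 0.79 for Cebpd. For Mt2 it was turned round, 1.72 within an animal and 1.23 between animals, and for Mt1 level, 0.75 and 0.76. Over all genes the medians were 0.31 within and 0.32 between animals, which is to say that sharing a stem made little difference to the typical gene.

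**Figure D4:**
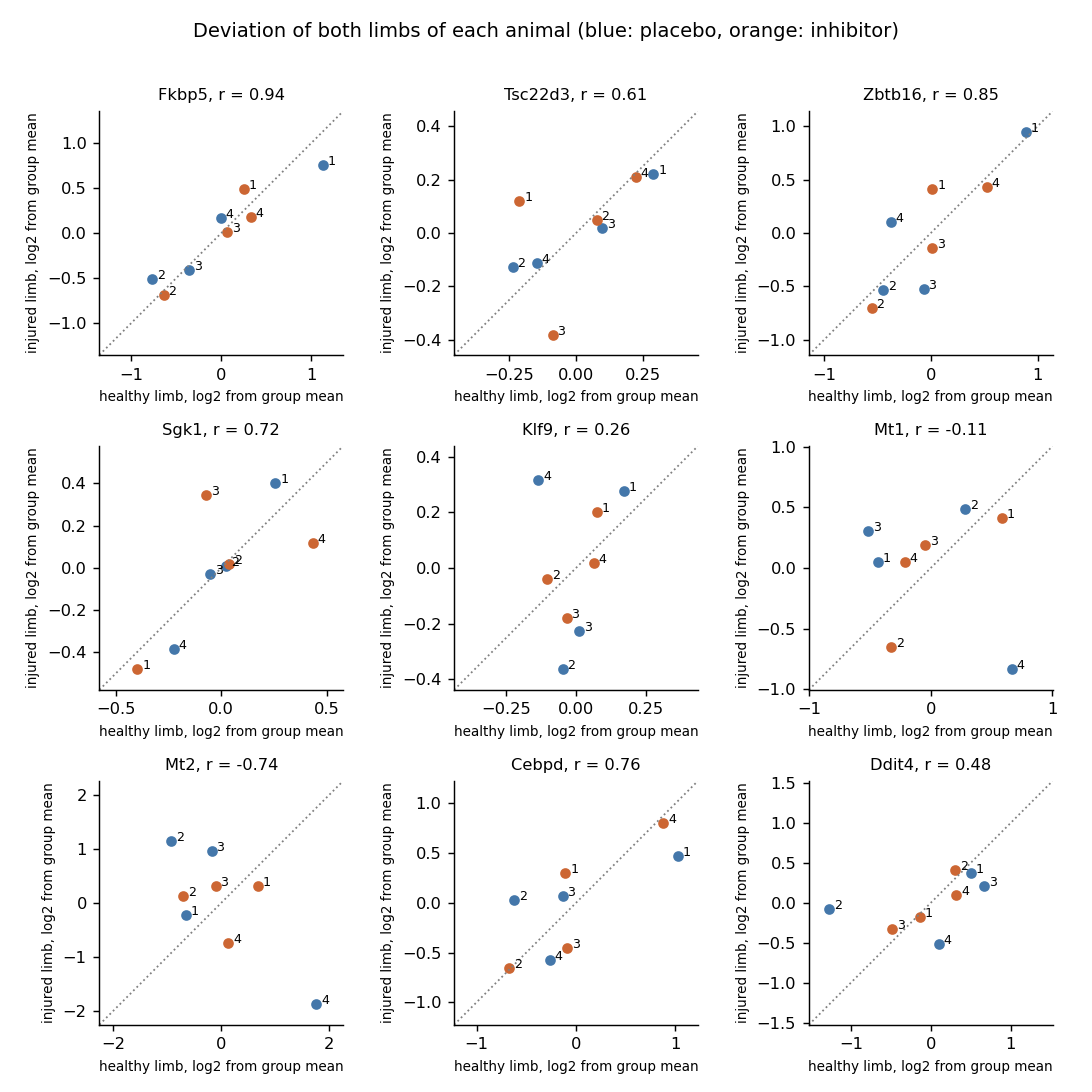
Deviation of the injured limb (y axis) against that of the healthy limb (x axis) from their group means of log2 CPM, for each of the 8 animals (numbered, blue placebo, orange inhibitor); the dotted line marks equal deviations, and axes differ in range between genes. Fkbp5 follows the line with r = 0.94, and Mt2 falls across it with r = -0.74, with placebo animal 4 at the lower right.

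**Figure D5:**
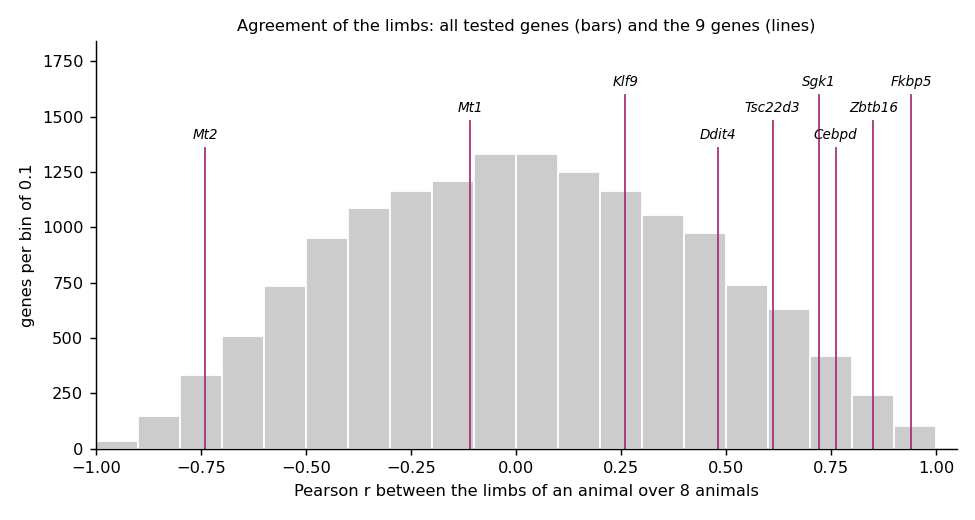
Number of genes (y axis) per bin of the Pearson r between the limbs over 8 animals (x axis) among the 15411 genes tested, with lines at the values of the 9 genes. The genes spread evenly about a median of 0.01, while 7 of the 9 lie above 0 and Mt1 and Mt2 below.

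Other glucocorticoid-responsive genes, from a list of 24, had a median r between the limbs of 0.63, and 20 of the 24 were above 0. The receptor and its chaperones and cofactors, a list of 11, had a median r of 0.61, and the clock list of 14 had 0.46. In the clock list 11 of 14 were above 0, and 4 had an exact permutation p under 0.05. Nfil3, Arntl and Dbp of that list reached r 0.99, 0.97 and 0.95, above the 0.94 of Fkbp5. The 10 macrophage markers had a median of -0.21 and the 7 adipocyte markers of -0.52, with 0 of either list above 0. Bcl6, a repressor induced by glucocorticoids, reached r 0.94 (exact permutation p = 0.00174, rho 0.90, adjusted p = 0.939, r 0.83 without the 2 farthest animals). That last value was the highest of its list. Without the 2 farthest animals of each gene, r fell from 0.92 to 0.10 for Dusp1 and from 0.66 to 0.06 for Glul. For Nr3c1 it fell from 0.61 to 0.07. It held for Foxo3 (0.74 and 0.72) and Cebpb (0.77 and 0.71). The medians were not taken without such animals, so how far they rest on 1 or 2 animals is not given. The lists share the same 8 animals, so these medians are descriptions.

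The receptor itself had overlapping levels in all 4 groups. Healthy limbs had Nr3c1 at 131 ± 11.2 CPM with placebo and 113 ± 19.2 CPM with the inhibitor, and injured limbs at 120 ± 13.9 and 112 ± 20.6 CPM (SD, n = 4), and the inhibitor difference with the limbs summed was -0.15 ± 0.11 (adjusted p = 0.592 with edgeR). Nr3c2, the mineralocorticoid receptor, gave 0.32 ± 0.09 (adjusted p = 0.209) in that comparison. The co-chaperone Fkbp4, the counterpart of Fkbp5, gave 0.13 ± 0.07 and the coactivator Ncoa1 0.02 ± 0.08. Of this list of 11, 6 were higher, 5 lower and 0 called, and the unadjusted p was under 0.05 for 1.

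Of the other 24 glucocorticoid-responsive genes 10 were higher and 14 lower with the inhibitor over both limbs, 0 were called and 6 had an unadjusted p under 0.05. They went in opposite directions. Pdk4, a kinase that keeps pyruvate from oxidation, gave 1.51 ± 0.50 (adjusted p = 0.256), from a mean of 347 ± 180 CPM over the placebo animals to 989 ± 323 CPM over the inhibitor animals (SD, n = 4). Per1, a clock repressor with known receptor sites, gave -1.24 ± 0.22 (unadjusted p = 0.000341, adjusted p = 0.142 with edgeR), from 39.3 ± 6.77 to 16.4 ± 4.73 CPM. Arrdc2, an arrestin domain gene, gave -1.36 ± 0.48 (adjusted p = 0.282), and -0.80 ± 0.34 without placebo animal 1, which was at 72.2 CPM over both limbs against 14.3 to 33.4 CPM in the other placebo animals. The muscle ubiquitin ligases Fbxo32 (atrogin-1) and Trim63 (MuRF1), which glucocorticoids are known to raise in muscle wasting, gave -0.28 ± 0.29 and -0.18 ± 0.17, within or about their errors, and -0.07 ± 0.30 and -0.05 ± 0.17 without placebo animal 1. So neither in this list nor among the 9 did all genes lie on 1 side of 0.

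Cytokine, metal and stress genes gave the neighbourhood of Cebpd, the metallothioneins and Ddit4. Of 10 genes of the IL-6 and STAT3 response, 8 were lower with the inhibitor over both limbs and 4 had an unadjusted p under 0.05, led by the acute phase gene Serpina3n at -1.35 ± 0.27 (adjusted p = 0.142 with edgeR). Junb gave -0.91 ± 0.32 and Stat3 -0.14 ± 0.07 in that comparison. Junb was at 15.1, 29.5 and 18.5 CPM in healthy placebo 4, injured placebo 2 and injured placebo 3, which were high in Prg4. It was at most 7.72 CPM elsewhere, and at 6.54 CPM in healthy inhibitor 1, also high in Prg4. Of 5 metal response genes 3 were lower: Mt3, the third metallothionein measured, gave -2.72 ± 0.75 (adjusted p = 0.201), with 5.53 and 4.49 CPM in injured placebo 2 and 3 and at most 0.838 CPM elsewhere. The zinc exporter Slc30a1 gave -0.27 ± 0.10 and the metal-sensing factor Mtf1 0.13 ± 0.11. Of 12 stress and hypoxia genes 6 were higher and 6 lower, with Vegfa at 0.46 ± 0.10, Hif1a at -0.51 ± 0.12 and Ddit3 at 0.44 ± 0.18, and 0 called. Hif1a was at 45.3, 47.7 and 35.8 CPM in healthy placebo 4, injured placebo 2 and injured placebo 3 and at most 32.0 CPM elsewhere. The part of these libraries in the differences of Junb and Hif1a was not tested. In the clock list the smallest p values belonged to Cry1, Per3 and Nr1d2, at 0.66 ± 0.14, -1.12 ± 0.24 and -0.42 ± 0.08 with the limbs summed.

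Over the 16 libraries the log2 levels of Fkbp5 and Zbtb16 ran closest of the 36 pairs, at a Pearson r of 0.95, followed by Mt1 and Mt2 at 0.83. Between these pairs r was -0.24 to -0.52. Tsc22d3 and Cebpd were at 0.66. Outside the 9 genes, Synpo and Art3 (both r 0.94) and Slc38a2 (0.91) ran closest to Fkbp5. Closest to the mean standardised level of all 9 were Atp13a3 (0.89), Slc15a4 (0.85), and Fibin, Sub1 and Npat (each 0.80). The libraries share depth, animals and group differences, so these values are descriptions.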

How the data were processed

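Quadriceps RNA was sequenced in 16 libraries of 4 groups. The authors deposited expected counts per Ensembl gene for all libraries, without scaling. STAR, Partek and DESeq2 and the build GRCm38 (mm10) are named per the submitters' processing notes, without roles or versions. Of the values 33.8% were not whole, and they were rounded. The annotation release is not given in the sources used here; symbols and coordinates came from GENCODE for GRCm38 by Ensembl ID, which named 17338 of the 17370 genes.

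In R 4.3.3, filterByExpr of edgeR 4.0.16 (minimum count 10) dropped 1959 genes. Libraries were scaled by TMM and 4 group means were fitted to the 16 libraries by robust quasi-likelihood, with 12 residual degrees of freedom and a common biological coefficient of variation of 0.284. For the inhibitor over both limbs the libraries of each animal were summed (6 residual degrees of freedom, coefficient 0.21, 15987 genes). Tests were two-sided with Benjamini-Hochberg adjustment over all genes tested at 0.05. Agreement of the limbs used log2 CPM with a prior count of 2. DESeq2 1.42.0, limma 3.58.1, other scaling, no filter, blocks and left-out libraries were alternatives. The main edgeR fits and the test of limb agreement were first run on simulated data, and the alternatives were not. Python 3.11.15 with matplotlib 3.10.9 drew the figures.

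The shared stems of the column names pair the limbs. Over all genes, the deviations of paired limbs from their group means correlated at 0.47, -0.18, -0.11 and -0.53 in placebo animals 1 to 4 and at 0.23, -0.04, -0.01 and -0.10 in inhibitor animals 1 to 4. The animal was therefore fitted as a block in an alternative only.

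All 9 genes were named in full. Of other lists the rule named called genes, the 3 smallest p values of 6 lists, and Nr3c1, Per1, Fbxo32 and Trim63; Nfil3, Arntl, Dbp and Bcl6 were added after their values were seen. The genes and lists were chosen with earlier results of these data known. Counting intervals and floors cover counting error only. Sequences are RefSeq promoters of GRCm38.p6, searched for motifs on both strands.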

Additional observations from a re-analysis of the deposited data

Results flagged for a closer look

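Over the 9 genes and 4 groups, 36 sets of 4 libraries were examined for a library far from the others, and 1 was found. Mt2 was at 7.41 CPM in healthy placebo 4 and at 1.08 to 1.87 CPM in the other 3 healthy placebo libraries, and its gap to the nearest of them took up 0.875 of the range of the group. Chance alone marks about 1 such set in 20, so 1 among 36 is no more than that rate gives. Healthy placebo 4 is also 1 of the 4 libraries with Prg4 above 100 CPM, with Prg4 at 251 CPM and macrophage markers summing to 408 CPM. Without this library the inhibitor difference of Mt2 in healthy limbs was 0.36 on the log2 scale in place of -0.66, its injury difference with placebo was 2.81 in place of 1.80, and the difference of its injury effects between inhibitor and placebo was -2.64 in place of -1.63. The part of those markers in the Mt2 value was not tested.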

How the results depend on the processing

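Across alternatives, 1073 of 1107 log2 differences of the 9 genes stayed within 1 SE of the reported value, and 94, belonging to 35 results, had the other sign; 4 passed the adjusted threshold. Counts of genes called, reported as 0, changed as follows. The Wald test of DESeq2 called 2 genes for injury with placebo, 1 for injury with the inhibitor, 255 for the inhibitor in injured limbs, 11 in healthy limbs and 630 with the limbs summed, and 1 of the 9 genes (Mt2) in the injured limbs and in the sums. With the replicate number as a block 1 gene was called for the inhibitor in injured limbs and 0 elsewhere; with the animal as a block, which left 6 residual degrees of freedom, 0 genes were called in any injury comparison, and limma's correlation within animals was 0.016. Leaving out each library or animal in turn gave 0 to 3 genes for injury with placebo, 0 to 39 for the inhibitor in injured limbs (39 without injured placebo 4), 0 to 1 in healthy limbs and 0 to 1689 in the sums, with 0 to 2 of the 9 genes. Chosen after seeing the data, leaving out both libraries of placebo animal 1 gave 14 genes in injured and 6 in healthy limbs, and sums without the 4 libraries high in Prg4 gave 1, or 6 when placebo animal 1 was left out too. The median r between the limbs, 0.61, ranged from 0.45 without placebo animal 1 to 0.80 without inhibitor animal 3, and was 0.61 with other scaling or prior count. The causes of these changes were not tested. At 1 to 3 CPM, Mt2 rested on few counts per library, which limits its precision.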
